A study of Mus musculus with 34 samples.

Results

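The genes that write, copy and remove DNA methylation were followed in N2A cells, a mouse neuroblastoma line, after treatment with 27 small molecules. The 7 genes were Dnmt1, Uhrf1, Dnmt3a, Dnmt3b, Tet1, Tet2 and Tet3, chosen by name. They are 7 of the 52661 genes in the deposited expression table, and 295 of the 401633 splicing events in the deposited event table belong to them. Cells were treated for 24 h with a compound or with vehicle alone, and every group, the DMSO control included, was held at 0.4% DMSO. Of the 34 polyA+ RNA-seq libraries, 3 were from DMSO, 2 from each of 4 histone deacetylase (HDAC) inhibitors, and 1 from each of 23 other compounds. The HDAC inhibitors were Vorinostat at 2.5 µM, CI-994 at 5 µM, and BRD6688 and BRD4884 at 10 µM each, doses taken from the compound list of the study. The 23 others were 5-azacytidine at 5 µM, a cytidine analogue that traps DNA methyltransferases once it is built into DNA, 7 kinase inhibitors and 15 drug-like screening compounds. All compounds were chosen by the study because they raised or lowered microexon splicing, so they are not a random set of drugs. The RNA came from bulk cultures of 1 cell line, in which fewer cells that express a gene and less RNA per cell cannot be told apart, and DNA methylation itself was not measured.

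DNA methylation in mammals is a methyl group on cytosine, mostly where a guanine follows. Dnmt1 copies the mark onto the new strand behind the replication fork, guided by Uhrf1, which binds hemimethylated sites and ubiquitylates histone H3. Dnmt3a and Dnmt3b set new marks, and Tet1, Tet2 and Tet3 oxidise methylcytosine as the first step of its removal. Dnmt1 and Uhrf1 are known as genes of proliferating cells, expressed with the replication machinery around S phase under E2F factors, while Dnmt3a and Tet3 are abundant in neural cells.

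The promoters of Dnmt1 and Uhrf1 are shown because these genes fell furthest with the mean of the HDAC inhibitors and because reads over the start of Uhrf1 changed differently from the rest of that gene. RefSeq (GRCm38.p6) gave 12 promoters for the 7 genes, and each was read over the 250 bases before the start. The letters TTTCGCGC, the form of the E2F motif with a CG pair at its core, were searched on both strands and are in capitals below. They occurred in 84 of 32851 promoters of the same length (0.256%), and in 2 of the 12 promoters of the 7 genes. These were the downstream Uhrf1 promoter and the Dnmt1 promoter with 26 CG pairs, where the letters are on the opposite strand. The Dnmt1 window runs into the first intron of an annotated transcript (GRCm38 chr9:20942620-20952707), and another listed Dnmt1 start lies upstream of it. The downstream Uhrf1 window lies within the intron that follows the upstream exon (chr17:56303562-56305085). Both windows thus also hold bases that transcripts from an upstream start would cover. The upstream Uhrf1 promoter holds 10 CG pairs against 30 in the downstream one, and the median of all promoters is 6. It has no match to TTTCGCGC, and none to TTTCCCGC or TTTGGCGC, the other E2F-type letters searched. Of all promoters, 1.53% held 1 or more of these 3 motifs. A match is a match of letters only.
Uhrf1, upstream start (chr17:56303087-56303336, plus strand): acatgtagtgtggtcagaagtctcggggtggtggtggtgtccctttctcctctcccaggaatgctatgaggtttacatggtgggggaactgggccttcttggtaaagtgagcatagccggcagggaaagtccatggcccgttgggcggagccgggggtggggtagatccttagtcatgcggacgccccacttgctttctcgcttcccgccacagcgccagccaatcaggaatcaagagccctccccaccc
Uhrf1, downstream start (chr17:56304063-56304312, plus strand): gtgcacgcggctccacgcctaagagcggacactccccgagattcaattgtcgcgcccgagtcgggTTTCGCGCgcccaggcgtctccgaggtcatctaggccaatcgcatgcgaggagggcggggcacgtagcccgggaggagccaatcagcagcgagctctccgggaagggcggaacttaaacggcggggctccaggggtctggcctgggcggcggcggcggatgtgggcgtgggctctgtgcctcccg
Dnmt1, start with the match (chr9:20952624-20952873, minus strand): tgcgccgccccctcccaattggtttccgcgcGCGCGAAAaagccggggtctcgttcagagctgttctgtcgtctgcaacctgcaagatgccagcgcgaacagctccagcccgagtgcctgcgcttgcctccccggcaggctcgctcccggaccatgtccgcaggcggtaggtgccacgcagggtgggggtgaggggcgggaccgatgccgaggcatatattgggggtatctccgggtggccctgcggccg

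Expression was available on 2 scales. The first is the authors' RPKM, read density scaled to transcript length and library size, with 1 value for each of the 28 conditions and replicates merged. The second was computed from the event table as the reads that join the exons on either side of an intron, summed over the measured introns of a gene and divided by all such junction reads of the library, given per 1000000 of them (junction RPM below). This second scale keeps the libraries apart, but it compares a gene only with itself, because the number of introns differs between genes. Libraries held 17702718 to 40613524 junction reads with a median of 26332957, and 37 introns were measured for Dnmt1, 21 for Dnmt3a, 13 for Dnmt3b, 10 each for Tet2 and Tet3, 7 for Tet1 and 6 for Uhrf1. Several libraries stood apart in coverage along genes. The 5′ minus 3′ difference of junction reads to DMSO had a median over 3464 genes of -0.04 to 0.13 on the log2 scale in most libraries, but 0.23 or more in 1 of 2 Vorinostat libraries, in both CI-994 and both BRD6688 libraries, and in T5985871 and BTB13120. The 2 Vorinostat libraries also lay further from their group mean, with a median absolute deviation over genes of 0.118 on the log2 scale. In the other replicated groups this value was 0.0466 to 0.0606. Markers of neuroblastoma were present, with a summed level of 1058 RPKM in DMSO over the 10 genes listed. The summed level of 6 markers of other cell types was 1.16 RPKM in DMSO and 3.38 to 16.8 with HDAC inhibitors. It was 4.18 with 5-azacytidine, inside the 0.75 to 5.12 of the 22 other compounds. The fibroblast gene Col1a1 was at 0.02 RPKM in DMSO and 0.96 to 11.67 with HDAC inhibitors, the endothelial gene Pecam1 at 0.79 and 2.15 to 3.77, and the astrocyte gene Gfap at 0.29 and 0.07 to 3.57, with 3.03 for 5-azacytidine. The leukocyte gene Ptprc, Epcam of epithelium and Alb of liver did not exceed 0.33 RPKM in these conditions. The part of these markers in the changes below was not tested.

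Dnmt1 and Uhrf1 were the most abundant of the 7 genes per length, and both had their lowest RPKM with Vorinostat, CI-994 and MK-1775, in that order. In DMSO, Uhrf1 was at 133.73 RPKM, Dnmt1 at 72.82, Dnmt3a at 27.97, Tet3 at 14.88, Tet2 at 4.26, Dnmt3b at 3.81 and Tet1 at 1.73. No error can be given for these values, because the table holds 1 per condition. The order Uhrf1, Dnmt1, Dnmt3a, Tet3 at the top and Tet1 at the bottom spans a wide range, but Tet2 and Dnmt3b lay close together, and over the 28 conditions Tet2 ran from 3.38 to 5.97 RPKM and Dnmt3b from 1.85 to 5.22. Uhrf1 ran from 34.44 RPKM with Vorinostat to 149.76 with BTB13120, and Dnmt1 from 26.48 to 82.5 with the same compounds. Of 117 pairs of a member gene and a compound with more than 5 RPKM in either condition, 6 passed a 2-fold difference from DMSO, where 6.53% of all such pairs did. These were Dnmt1 and Uhrf1 with Vorinostat and with CI-994, Uhrf1 with the WEE1 inhibitor MK-1775, and Tet3 with T5985871, all lower than DMSO. The median of all genes was itself lower than in DMSO on this scale, by a log2 ratio of -0.36 with Vorinostat, -0.44 with CI-994, -0.30 with MK-1775 and -0.20 with T5985871, and 3 of the 6 pairs remained past 2-fold when each compound was centred on its median.

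**Figure D1:**
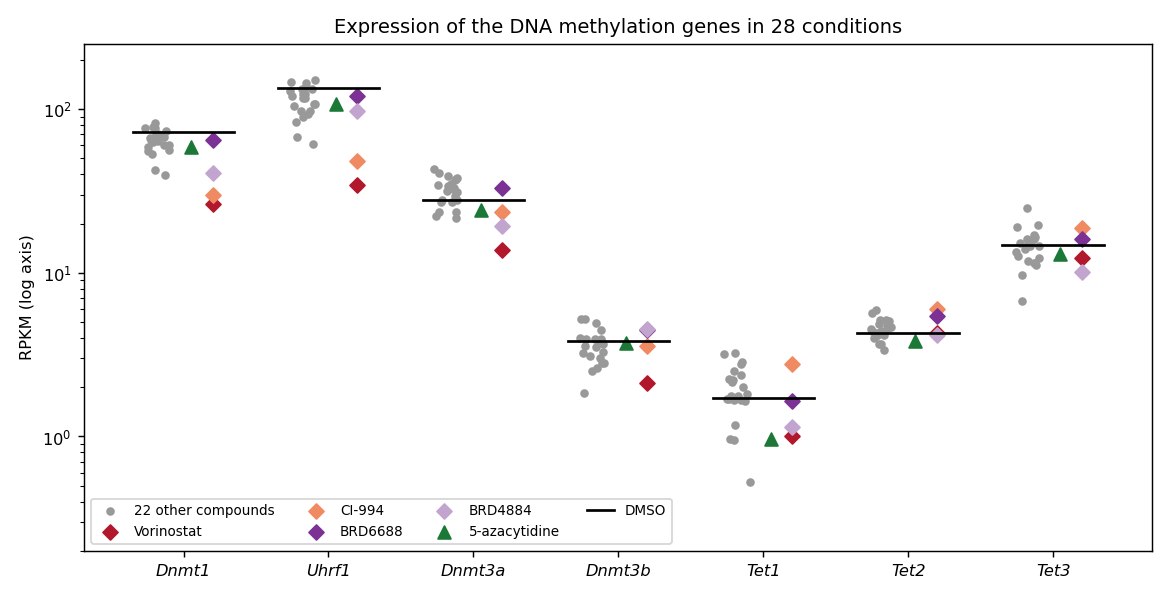
RPKM (log axis) of the 7 genes in 28 conditions, with 1 value per condition. The black bar is DMSO, diamonds are the 4 HDAC inhibitors, the triangle is 5-azacytidine and grey points are the 22 other compounds. Vorinostat gives the lowest Dnmt1 (26.48) and Uhrf1 (34.44), while 5-azacytidine lies inside the grey points for every gene.

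Dnmt1, the maintenance methyltransferase, was measured at 866, 853 and 855 junction RPM in the 3 DMSO libraries. Vorinostat gave 381 and 415, CI-994 gave 389 and 423, BRD4884 gave 587 and 579, and BRD6688 gave 806 and 800. All 8 HDAC inhibitor libraries were below the 3 DMSO libraries, but BRD6688 lay close to them. Against DMSO, limma on all 34 libraries gave a log2 difference of -1.11 (SE 0.06, adjusted p = 1.23e-09) for Vorinostat, -1.08 (SE 0.06, adjusted p = 1.72e-09) for CI-994 and -0.56 (SE 0.06, adjusted p = 2.95e-06) for BRD4884. The difference with BRD6688 was -0.10 (adjusted p = 0.168). Dnmt1 also fell with 4 compounds of 1 library each, which were assumed to vary like the replicated groups. These were GNF-5837, a TRK inhibitor, with -0.54, MK-1775 with -0.48, OICR.24K.Dissimilar_18_P14 with -0.30 and T5985871 with -0.28, and no compound raised it. The call with T5985871 was lost after centring on the median gene (-0.05, adjusted p = 0.677 by limma). The calls stand beside many others, since 76.3% of 10448 genes passed the same test with Vorinostat, 77.1% with CI-994, 65.9% with BRD6688 and 60.6% with BRD4884.

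Uhrf1, the partner that brings Dnmt1 to hemimethylated DNA, had larger log2 differences than Dnmt1 with each HDAC inhibitor on junction reads, but on RPKM with Vorinostat and CI-994 alone. DMSO libraries had 299, 313 and 279 junction RPM, Vorinostat 50.05 and 51.98, CI-994 62.7 and 64.2, BRD4884 158 and 157, and BRD6688 180 and 189. Every HDAC inhibitor library was below every DMSO library. The log2 differences were -2.53 for Vorinostat, -2.22 for CI-994, -0.91 for BRD4884 and -0.69 for BRD6688 (SE 0.07 each, adjusted p between 2.47e-12 and 1.35e-06 by limma). Outside this class Uhrf1 fell with GNF-5837 (-1.17, 131 junction RPM), MK-1775 (-0.86, 164) and OICR.24K.Dissimilar_18_P14 (-0.68, 185), and with the PDGFR inhibitor Crenolanib (-0.45), JFD00822 (-0.43), 5-azacytidine (-0.38) and BTB13120 (-0.33). It rose with BTBS00065 (0.24, adjusted p = 0.0483), a call that was lost when libraries were centred on their median gene. The RPKM scale gave other values for 3 of these compounds. Against 133.73 RPKM in DMSO, Uhrf1 was at 119.66 with BRD6688 (log2 ratio -0.16, and -0.16 for Dnmt1), at 96.9 with BRD4884 (-0.46, and -0.83 for Dnmt1), and at 149.76 with BTB13120 (0.16), where the scales went in opposite directions.

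**Figure D2:**
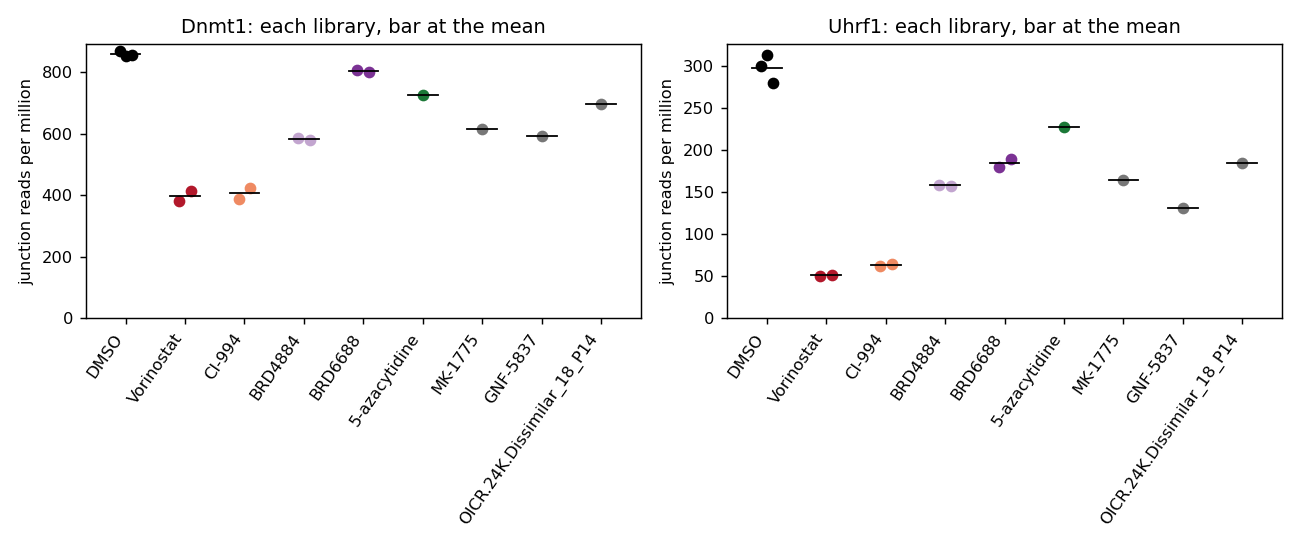
Junction RPM of Dnmt1 (left) and Uhrf1 (right) in each library of 9 conditions, with a bar at the mean of each condition. Dnmt1 with BRD6688 (806 and 800) lies near DMSO (853 to 866), while Uhrf1 with BRD6688 (180 and 189) lies well below DMSO (279 to 313).

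Uhrf1 has an upstream and a downstream first exon in the annotation, and the reads over the upstream one fell further with HDAC inhibitors than reads over the rest of the gene. The first intron measured (1524 bases, mm9 chr17:56442985-56444508) follows the upstream exon alone, whereas the next one (4086 bases) is shared by transcripts of both starts. In DMSO they had similar levels, at 77.8 to 83.6 and 72.2 to 77.9 junction RPM. With HDAC inhibitors the first intron dropped to 3.62 to 27.8 and the second to 15.9 to 56.5. The ratio of first to second was 0.998, 1.13 and 1.13 in DMSO, 0.227 and 0.285 with Vorinostat, 0.225 and 0.175 with CI-994, 0.444 and 0.396 with BRD4884, and 0.527 and 0.487 with BRD6688. It was 0.749 to 1.19 in the 23 other libraries, so the 8 HDAC inhibitor libraries did not overlap the other 26. GNF-5837 and MK-1775, with Uhrf1 at 131 and 164 junction RPM, had ratios of 0.954 and 0.969. Among adjacent introns of the 7 genes, 1 of 51 pairs separated the HDAC inhibitor libraries in this way, where 0.0370% of 35175 pairs of all genes did. The pair was noticed after its values were seen, so no test is given. Without the first intron, the 5 other introns gave log2 ratios to DMSO of -2.21 for Vorinostat, -1.88 for CI-994, -0.66 for BRD4884 and -0.46 for BRD6688, which compare with -2.54, -2.23, -0.91 and -0.69 over all 6. The first intron of transcripts from the downstream exon (692 bases) is not among the 6 introns measured, so the downstream start has no reads of its own here. The upstream promoter printed above precedes the exon whose reads fell further. It has 10 CG pairs and no exact match to the 3 E2F-type motifs searched. Looser forms of the motif were not searched, and any part of these letters in the fall was not tested.

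**Figure D3:**
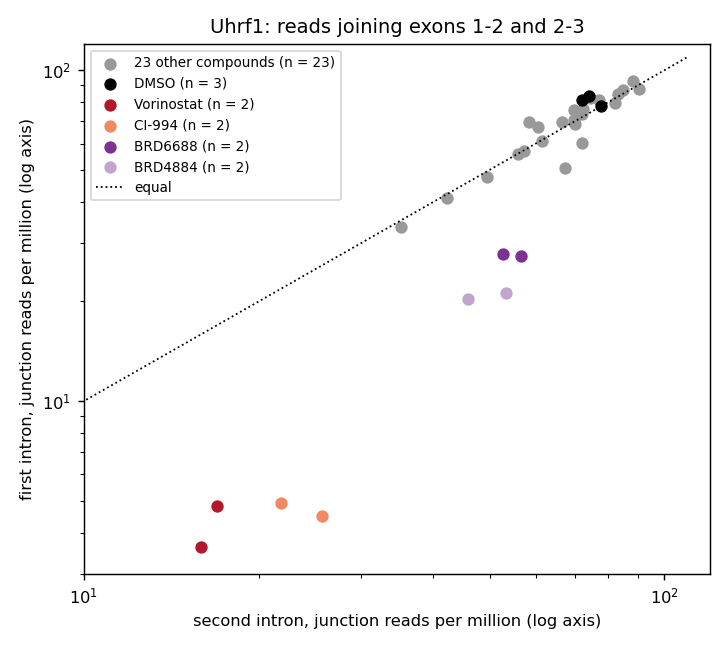
Junction RPM over the first (vertical) and second (horizontal) intron of Uhrf1, both on log axes, with 1 point per library and a dotted line where they are equal. DMSO and the 23 other compounds follow the line (ratios of 0.749 to 1.19) and the 8 HDAC inhibitor libraries lie under it (0.175 to 0.527).

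The Dnmt1 reads were not lowered evenly along the gene. With BRD6688, the 12 introns nearest the 5′ end were all higher than in DMSO (median log2 ratio 0.32) and the 12 nearest the 3′ end were all lower (-0.50), with the middle at -0.04. CI-994 ran from -0.59 at the 5′ end to -1.45 at the 3′ end and Vorinostat from -0.77 to -1.33, whereas BRD4884 (-0.52 and -0.56) and 5-azacytidine (-0.28 and -0.30) were level. By library, the ratio of 5′ to 3′ reads of Dnmt1 was 0.653 to 0.798 in DMSO, 0.747 and 1.40 with Vorinostat, 1.34 and 1.43 with CI-994, 1.38 and 1.24 with BRD6688, 0.694 and 0.736 with BRD4884 and 0.718 with 5-azacytidine. Among the HDAC inhibitor libraries, the tilt was thus present in those that stood apart in coverage along all genes, and 1 of the 2 Vorinostat libraries lacked it. In Dnmt1 it was steeper than in most genes, at 0.86 against a median of 0.24 with CI-994 and 0.82 against 0.23 with BRD6688, and 96.3% and 95.5% of 3464 genes lay below Dnmt1. BTB13120, which is no HDAC inhibitor, gave 1.03 against 0.32. T5985871, which also stood apart along all genes, gave 0.17 in Dnmt1 against 0.24, with 37.6% of genes below Dnmt1. SCH-772984 (0.48 against 0.09) and GNF-5837 (0.50 against 0.13) had a tilt in Dnmt1 although their libraries did not stand apart. The part of this tilt in the gene-level differences of Dnmt1 was not tested. With BRD4884, whose libraries had no such tilt, Dnmt1 was lower over all of its length.

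**Figure D4:**
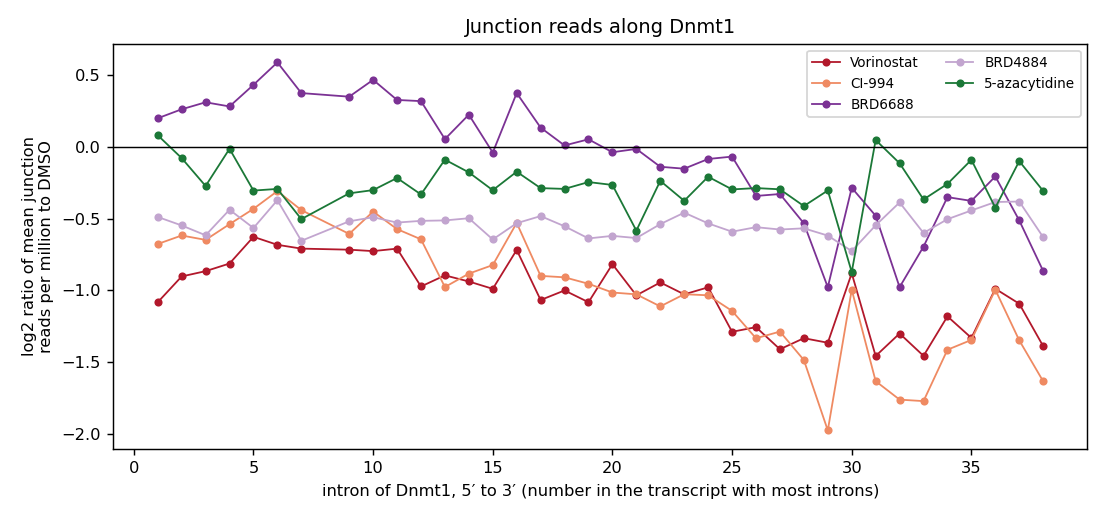
Log2 ratio of mean junction RPM to DMSO over 37 introns of Dnmt1, ordered from 5′ to 3′, for the 4 HDAC inhibitors and 5-azacytidine. BRD6688 starts above 0 (median 0.32 at the 5′ end) and ends below it (-0.50), while BRD4884 stays near -0.55 along the gene.

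Dnmt3a and Dnmt3b, the de novo methyltransferases, moved in both directions and not together. Dnmt3a was at 109, 105 and 110 junction RPM in DMSO, at 59.99 and 61.08 with Vorinostat, at 91.5 and 89.6 with CI-994, at 92.2 and 95.7 with BRD4884, and at 119 and 117 with BRD6688. The first 3 compounds lowered it by limma (-0.83, -0.25 and -0.20, the last with adjusted p = 0.0149), and BRD6688 gave 0.13 (adjusted p = 0.0985). Dnmt3a also fell with A-443654, an AKT inhibitor (-0.51), and with T5985871 (-0.66). It rose with 8 compounds, more than any other of the 7 genes. BTBS00065 gave 192 junction RPM (0.83), the MEK inhibitor Trametinib 174 (0.68), GNF-5837 173 (0.67) and Crenolanib 154 (0.51), followed by the IGF1R inhibitor NVP-AEW-541 (0.42), the ERK inhibitor SCH-772984 (0.36), T5635931 (0.32) and MK-1775 (0.27). Dnmt3a was thus higher with 6 of the 7 kinase inhibitors and lower with the other one, although the call with MK-1775 was lost after centring (0.24, adjusted p = 0.0815 by limma). Dnmt3b, at 26.6, 27.8 and 24.4 junction RPM in DMSO, had values of 18.7 and 17.6 with Vorinostat, 26.6 and 26.8 with CI-994, 33.8 and 35.5 with BRD6688, and 41.0 and 34.6 with BRD4884. It fell with Vorinostat (-0.52) and rose with BRD6688 (0.39) and BRD4884 (0.51). Its largest fall was with OICR.24K.Dissimilar_18_P14, at 12.8 junction RPM (-1.01, adjusted p = 0.000373), followed by Crenolanib (-0.51) and GNF-5837 (-0.37), and it rose with AW00693 and T5635931 (0.55 each).

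Among the Tet oxidases, Tet2 rose with CI-994 and BRD6688, Tet1 fell with Vorinostat and rose with CI-994, and Tet3 was called with none of the 4 unless libraries were centred on their median gene. Tet1 rests on few reads. Tet1 had 1.60, 2.19 and 1.60 junction RPM in DMSO, 0.282 and 0.656 with Vorinostat, 3.61 and 4.09 with CI-994, 3.47 and 2.13 with BRD6688, and 2.56 and 1.14 with BRD4884. Vorinostat and CI-994 thus moved it in opposite directions (-1.26, adjusted p = 0.00103, and 0.93, adjusted p = 0.00819 by limma), and GNF-5837 raised it to 4.79 (1.21). Tet2 was at 12.19, 13.97 and 11.99 in DMSO and rose to 18.7 and 18.1 with CI-994 (0.52) and to 20.1 and 17.9 with BRD6688 (0.56), with values of 11.4 and 16.6 for Vorinostat and 14.2 and 13.8 for BRD4884. Crenolanib raised it (0.61) and T5985871 lowered it (-0.54), but both calls were lost after centring (0.51, adjusted p = 0.0769, and -0.31, adjusted p = 0.218 by limma). Tet3, at 46.7, 50.1 and 41.9 in DMSO, passed the test with no HDAC inhibitor, CI-994 being nearest with 55.9 and 51.1 (0.21, adjusted p = 0.0575). After centring it was called with CI-994 (0.25, adjusted p = 0.0311) and, in the other direction, with BRD4884 (-0.32, adjusted p = 0.00909 by limma). It rose with SEW06315 (0.53), Crenolanib (0.49), Trametinib (0.46) and GNF-5837 (0.41), and T5985871 lowered it to 22.8 (-1.002, adjusted p = 1.60e-05). In T5985871 the median of all genes was at -0.18 on this scale.

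Over all 27 compounds, 52 of 189 pairs of a member gene and a compound passed the test on junction reads (27.5%), near the 25.6% of pairs of all genes. Dnmt1 fell in 7 and rose in 0, Uhrf1 fell in 11 and rose in 1, Dnmt3a fell in 5 and rose in 8, Dnmt3b fell in 4 and rose in 4, Tet1 fell in 1 and rose in 2, Tet2 fell in 1 and rose in 3, and Tet3 fell in 1 and rose in 4. Besides the changes given above, centring on the median gene added calls for Dnmt3b with BTBS00065 (-0.43) and T5758020 (0.41) and for Uhrf1 with NVP-AEW-541 (-0.29). All compounds share the 3 DMSO libraries. For the mean of the 4 HDAC inhibitors against DMSO, 4 of the 7 genes passed, where 77.5% of all genes did. Uhrf1 was at -1.58, Dnmt1 at -0.71, Dnmt3a at -0.29 and Tet2 at 0.33 (adjusted p = 0.0151), with Tet1, Tet3 and Dnmt3b not called. The Tet2 call was lost without DMSO library A (0.30, adjusted p = 0.0635) and without DMSO library C (0.29, adjusted p = 0.0697).

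**Figure D5:**
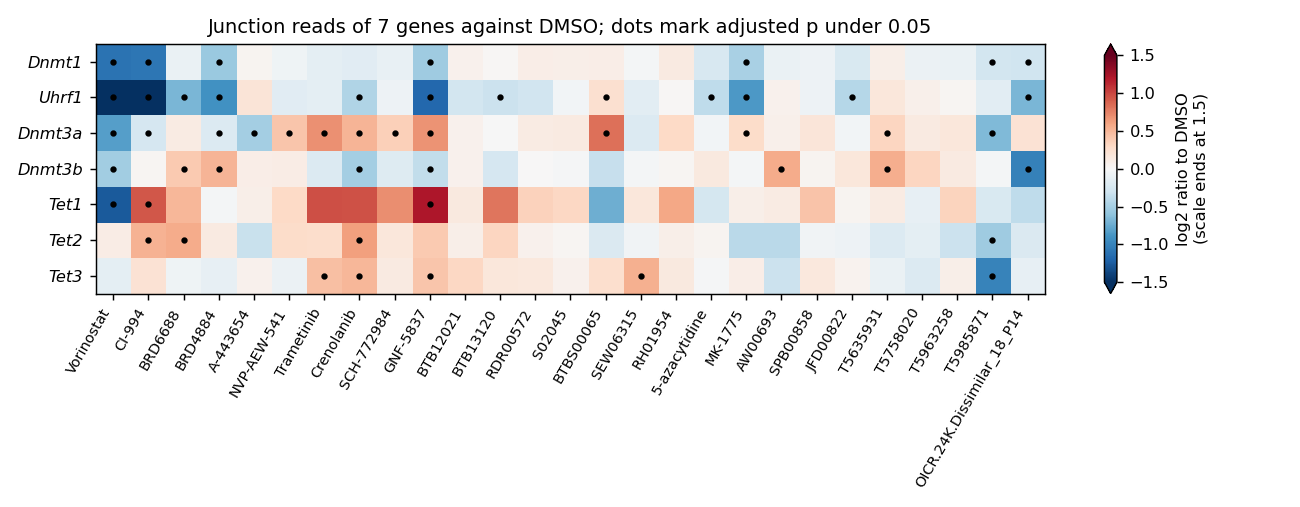
Log2 ratio of junction reads to DMSO (colour, scale ended at 1.5 in either direction) for the 7 genes and 27 compounds, with a dot where limma gave an adjusted p under 0.05. The rows of Dnmt1 and Uhrf1 hold 18 dots for lower and 1 for higher levels, while the Dnmt3a row holds 8 for higher and 5 for lower.

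With 5-azacytidine, the 7 genes stayed within the range of the other compounds, and 1 of them, Uhrf1, fell by the test on junction reads. Dnmt1 was at 58.66 RPKM (72.82 in DMSO), Uhrf1 at 107.64 (133.73), Dnmt3a at 24.23 (27.97), Dnmt3b at 3.72 (3.81), Tet1 at 0.97 (1.73), Tet2 at 3.84 (4.26) and Tet3 at 12.96 (14.88). Each value was below DMSO, but in 0 of 7 genes was it outside the range of the 22 other compounds that are not HDAC inhibitors, where 6.10% of 12379 genes were. On junction reads Uhrf1 was lower at 227 junction RPM (-0.38, SE 0.08, adjusted p = 0.0152), and Dnmt1 at 725 was not called (-0.24, SE 0.07, adjusted p = 0.0772), while 6.36% of 10448 genes were. The Uhrf1 call was lost without DMSO library B (-0.35, adjusted p = 0.0569), and the Dnmt1 call was gained without either Vorinostat library (adjusted p = 0.00553 and 0.00556), as these libraries enter the shared estimate of the spread. The 5 others had log2 differences between -0.26 (Tet1) and 0.15 (Dnmt3b), with adjusted p of 0.583 or more by limma. A gene often silenced by promoter methylation, Tex19.1, a germline gene, was listed at 0.2 RPKM in DMSO and 8.48 with 5-azacytidine, above the 0.08 to 4.8 of the 22 others. On junction reads its log2 difference was 3.78 (adjusted p = 0.000212), and Vorinostat and CI-994 gave 8.46 and 7.81 RPKM. Of 16 germline genes listed, 4 were above 5 RPKM in DMSO or with 5-azacytidine, Tex19.1 only through its value with 5-azacytidine. Asz1, Sohlh2 and Dazl were above 5 RPKM in DMSO already and did not pass 2-fold. Below that limit, Slc25a31 was at 0 RPKM in DMSO and 1.3 with 5-azacytidine, and Sycp1 at 0 and 0.57. The remaining germline genes were at 0.38 RPKM or less with 5-azacytidine.

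Taken as classes of compounds on the RPKM scale, the 4 HDAC inhibitors had lower Dnmt1, Uhrf1 and Dnmt3a than the 23 others. Dnmt1 ran from 26.48 to 65.13 RPKM with a median of 35.2 over the HDAC inhibitors and from 39.5 to 82.5 with a median of 64.5 over the others, so the classes overlapped. In 0 of the 7 genes did all 4 HDAC inhibitors lie beyond all 23 others, where 10.5% of genes had that pattern. With compounds as the units, limma gave log2 differences of -0.72 for Dnmt1 (SE 0.16, adjusted p = 0.00055), -0.73 for Uhrf1 (SE 0.22, adjusted p = 0.00663) and -0.52 for Dnmt3a (SE 0.17, adjusted p = 0.0117), and 52.8% of 12379 genes were called. The exact permutation test over 17550 splits of the compounds gave adjusted p of 0.00619, 0.0208 and 0.0182 for them. Dnmt3b (0.01), Tet1 (-0.17), Tet2 (0.13) and Tet3 (-0.01) were not called. The median of all genes was at -0.17, and after centring on it Dnmt3a was no longer called (-0.30, adjusted p = 0.129) and Tet2 was (0.35, adjusted p = 0.0227). Without Vorinostat neither Uhrf1 (-0.41, adjusted p = 0.129) nor Dnmt3a (-0.31, adjusted p = 0.153) was called, and without CI-994 Uhrf1 was not (-0.57, adjusted p = 0.0617).

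BRD6688 and BRD4884, which the study describes as derivatives of CI-994 with kinetic selectivity for HDAC2, were tested at the same dose and time. They form the only such pair among the HDAC inhibitors, so 1 pair was compared. The comparison was added after values were seen, so its p-values are not those of a planned test. BRD4884 gave lower Dnmt1 than BRD6688, with a log2 difference of -0.46 (95% interval -0.60 to -0.32, adjusted p = 0.00326 by limma). Dnmt3a (-0.33, interval -0.48 to -0.18, adjusted p = 0.00721) and Uhrf1 (-0.22, interval -0.38 to -0.07, adjusted p = 0.0328) were lower too. The others were not called, with intervals of -0.78 to -0.07 for Tet2 (adjusted p = 0.0631), -1.19 to 0.13 for Tet1, -0.28 to 0.17 for Tet3 and -0.13 to 0.37 for Dnmt3b. Of all genes, 31.7% differed between these compounds. Without BRD4884 library A or BRD6688 library A, 1 of the 7 genes was called in place of 3. The 2 compounds also differed in the tilt along Dnmt1 given above, and the part of that tilt in these differences was not tested.

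Few splicing events of the 7 genes were called. Percent spliced in (PSI) is the share of reads that include an exon, splice site or intron. Over 5910 pairs of a member event and a compound, 55 were called (a difference of 10 PSI or more, and 0.95 of the posterior on 1 side), where 1.35% of all pairs were. Of these, 34 were in Dnmt3b, 9 in Tet2, 6 in Tet3, 4 in Dnmt3a, 2 in Dnmt1 and 0 in Uhrf1 and Tet1, over 18 events. Calls made between 1 DMSO library and the others gave 2 events of the 7 genes for each library, among 212 to 225 tested. Of all events, 0.853% to 0.881% were called in this way. The share of member pairs called was thus near that of DMSO libraries set against each other. Calls of 1 library against DMSO have no replicate check.

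A 57-nt exon of Tet3 (mm9 chr6:83391211-83391267) was included in 81.0, 86.7 and 77.3 PSI in DMSO. It was at 94.6 and 96.0 with CI-994, 92.7 and 93.4 with BRD6688, and 100 and 97.6 with BRD4884, but at 75.1 in the Vorinostat library that passed the filters. The 23 other compounds lay between 67.5 and 87.7, with 5-azacytidine at 81.5. The increases with CI-994, BRD6688 and BRD4884 were 13.6, 11.3 and 17.1 PSI. Called lower were 3 other compounds, RDR00572 (-14.2), RH01954 (-13.2) and OICR.24K.Dissimilar_18_P14 (-12.6). The exon, and the grouping of CI-994, BRD6688 and BRD4884 without Vorinostat, were singled out after the values were seen. How many events of all genes set these libraries apart was not counted.

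In Dnmt3b, a 115-nt exon (mm9 chr2:153476521-153476635) was called in 10 compounds, 4 higher and 6 lower. Its PSI was 60.9 and 68.0 in the 2 DMSO libraries that passed, 24.5 with S02045 and 90.4 with SEW06315. CI-994 raised it (74.5 and 75.5) and BRD6688 lowered it (43.3 and 47.9), so it moved in opposite directions within the class. A 60-nt exon of Dnmt3b (mm9 chr2:153496585-153496644) was at 13.6, 8.98 and 13.9 PSI in DMSO and was raised by 5 compounds, T5985871 (32.6), BTB12021 (30.8), RDR00572 (30.3), T5758020 (22.5) and AW00693 (22.4). An intron of 1768 bases that contains this exon was called higher in 6 compounds, by at most 11.9 PSI and on 2.11 to 6.91 inclusion reads a library. In Dnmt3a, an alternative 5′ splice site was used less with BTB13120 (84.1 PSI) and RH01954 (85.0) than in DMSO (98.4, 100 and 87.6), and the other site of that pair mirrors it.

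For 5-azacytidine the only call was a 263-base intron of Dnmt1 (mm9 chr9:20716753-20717015), retained at 20.5 PSI against 8.11, 9.50 and 0.75 in DMSO. Libraries of CI-994 gave 3.03 and 24.1 for the same intron, so replicates differed as much. An intron of 3497 bases in Tet2 (mm9 chr3:133139600-133143096) was called higher in 4 compounds, at 31.7 to 36.4 PSI against 7.69 to 16.9 in DMSO, on 5.45 to 8.56 inclusion reads. An alternative 3′ splice site of Tet2 was at 47.4 and 52.8 PSI with BRD6688 against 24.3 and 26.8 in DMSO. When the 4 HDAC inhibitors were tested by limma on PSI, 4 events of the 7 genes could be tested, and 0 were called for their mean, where 4.36% of 10961 events were. At an unadjusted p under 0.05, the 62-nt exon of Dnmt3b with BRD4884 was the only one of these to pass (5.92 PSI, adjusted p = 0.415 by limma).

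The other genes of the pathway were counted in lists on junction reads, to be read against the 77.5% and 6.36% of all genes called for the mean of the HDAC inhibitors and for 5-azacytidine. Of the 10448 genes, 4488 were higher and 3607 lower for that mean, and 215 higher and 450 lower with 5-azacytidine. Among readers and partners of methylated DNA, 8 of 17 tested fell and 2 rose for the HDAC inhibitor mean, and 1 rose with 5-azacytidine. Pcna, the clamp that tethers Dnmt1 to the fork, was at 353.02 RPKM in DMSO and at 66.49 to 158.47 over the 4 HDAC inhibitors. Mbd3, a subunit of the NuRD complex, was at 44.03 and at 8.24 to 18.62. Of genes for removal of oxidised methylcytosine and for deamination, 7 of 11 fell and 2 rose, with the abasic endonuclease Apex1 at 44.49 to 110.43 RPKM against 206.91. Of genes for methyl donor supply, 8 of 11 fell and 2 rose, and Shmt1, a serine hydroxymethyltransferase, was at 36.15 RPKM in DMSO and at 3.83 to 17.45 with HDAC inhibitors. Of genes for uptake and metabolism of 5-azacytidine, 8 of 12 fell and 1 rose. The one that rose was Cda, cytidine deaminase, which inactivates 5-azacytidine (1.05 RPKM in DMSO, 5.75 to 13.79 with HDAC inhibitors). For 5-azacytidine itself 0 of these 12 genes were called. The median log2 difference of all genes on this scale was 0.07 for the HDAC inhibitor mean.

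Listed genes of DNA replication and the cell cycle were lower with the HDAC inhibitors. All 18 that were tested fell for the HDAC inhibitor mean (median -1.43), 18 with Vorinostat (-2.26) and with CI-994 (-2.13), 16 with BRD4884 (-0.74) and 13 with BRD6688 (-0.58, with 1 higher), and 0 of 18 were called with 5-azacytidine. Of all 10448 genes, 3607 fell for that mean, 3813 with Vorinostat, 3935 with CI-994, 2205 with BRD4884 and 2753 with BRD6688. The helicase subunit Mcm5 was at 114.83 RPKM in DMSO and at 11.68, 9.16, 57.4 and 39.82 with Vorinostat, CI-994, BRD6688 and BRD4884. The summed level of the 19 listed genes was 2467 RPKM in DMSO, 367 to 1355 with HDAC inhibitors, 2567 with 5-azacytidine and 1122 to 2498 with the 22 others. The cell-cycle genes Cdk1 and Ccnb1 weigh most in this sum, at 667.03 and 339.87 RPKM in DMSO and 733.31 and 409.85 with 5-azacytidine. Cdt1 was higher too (134.82 against 76.54). Each of Mcm2 to Mcm7 was lower with 5-azacytidine than in DMSO, such as Mcm6 at 93.19 against 111.12. The part of replication in the falls of Dnmt1 and Uhrf1 was not tested.

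Over the 28 conditions, the genes whose log2 RPKM was most like that of Dnmt1 were Clspn (Pearson's r 0.949), E2f8 (0.944) and Mybl2 (0.941), among 9506 genes. For Uhrf1 they were Tuba1c (0.926), Dnmt1 itself (0.916) and Tubb5 (0.916), and without the HDAC inhibitors the r of Dnmt1 and Uhrf1 was 0.852 over 24 conditions. Tet3 was nearest to Foxk1 (0.910), Arhgap35 (0.888) and Cdk13 (0.886), and Dnmt3a to Emilin1 (0.838), Pacs1 (0.809) and Parp8 (0.806). The nearest genes of Dnmt3b were Htr3a (0.820), Rsad1 (0.800) and Pla2g12a (0.794), those of Tet1 were Nfic (0.826), Adcyap1r1 (0.811) and Tln2 (0.789), and those of Tet2 were Mbd5 (0.789), Nrp2 (0.766) and Erc1 (0.759). Among the members, Tet1 and Tet3 had an r of 0.739 and Tet1 and Tet2 of 0.669, while Dnmt1 and Dnmt3a had 0.537 over the 28 conditions and 0.0467 without the HDAC inhibitors. These values describe conditions that share normalisation, depth and the scaling of each column, and no p is given.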

How the data were processed

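PolyA+ RNA of N2A cells was sequenced by the authors in 34 libraries. For the deposited RPKM, the authors ran Salmon on GENCODE vM21 transcripts, summed transcripts to genes and merged replicates, which leaves 1 value per condition. The study's methods and the submitters' processing notes give different Salmon versions (the notes give 0.10.2). The deposited percent spliced in (PSI) came from vast-tools on mm9, and a text field beside each value carries its read counts, coverage and balance scores. The authors' log2 fold changes, p-values, FDR values and calls of change were not used, nor was the deposited table of splicing differences. No column of per-sample values was left unmapped (0).

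Junction reads were summed over the introns of a gene and scaled to 1000000 per library. Fits used limma 3.58.1 in R 4.3.3 with empirical Bayes and a trend (robust for RPKM), on log2(value + 0.5), for genes with a mean of 1 or more, with Benjamini-Hochberg adjustment over all genes and a limit of 0.05. The fit over 34 libraries had 6 residual degrees of freedom, so a compound with 1 library was assumed to vary like the replicated groups, and p-values measure the spread between libraries. Events had to pass the coverage and balance filters of the study (introns at least 15 reads), and calls came from 2000 draws of a beta distribution. The scripts were tested on simulated data. The design named the 7 genes in full, up to 4 genes a list with the largest RPKM ratio, the 3 closest genes of each member and up to 3 called events a gene. The members, lists and tests were chosen with earlier results of these data known. The ratios of neighbouring introns, the 5′ and 3′ summaries and the pair of BRD compounds were added after values were seen. Replicate letters A to C did not pair the libraries, since correlations of same-letter deviations ran from -0.231 to 0.0546. Alternatives were other pseudocounts, filters, scalings and sets of libraries, the replicate letter as a block, the logit of PSI and a limit of 15 PSI.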

Additional observations from a re-analysis of the deposited data

How the results depend on the processing

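The alternatives gave 145 counts that stayed within 1.5 times their value and 18 that moved further, and for single genes and events 311 results kept direction and call, 8 lost and 3 gained a call and 18 changed sign, all 18 of them values that were not called. In the comparison of the HDAC inhibitors with other compounds (2123 genes higher and 4416 lower), higher calls numbered 7133 without a filter, 1297 at a mean of 5 RPKM and 3395 after centring, where 3006 were lower. Leaving out 1 HDAC inhibitor gave 1665 to 2030 higher and 3429 to 4380 lower genes and 1 to 3 members. Centring turned Tet1 to 0.046 and Tet3 to 0.21, and left 3 member pairs past 2-fold on RPKM. Dnmt3b turned to -0.09 without BRD6688 and -0.10 without BRD4884 (at most 0.22, without Vorinostat), and Tet3 to 0.06 without Vorinostat and 0.14 without BRD4884 (at least -0.15, without CI-994). On junction reads Tet1 for the HDAC inhibitor mean was -0.013 after centring, below 0 without DMSO A or C, BRD6688 A or Vorinostat B, and between -0.077 (without BRD4884 A) and 0.16 (without DMSO B) over libraries left out. Without DMSO B, Tet3 was 0.025 for that mean and 0.040 for 5-azacytidine (at least -0.087, without DMSO C). With the replicate block, 4130 genes rose and 3300 fell (4488 and 3607 without it), Tet1 was -0.025, the Tet2 call was lost (0.29, adjusted p = 0.0764 by limma), and no other member call changed. The block left 110 of 478 PSI events, the logit 279, and leaving out 1 library 144 to 468. The PSI of the Dnmt1 intron was -0.94 with the block or without DMSO C, and -0.89 without CI-994 B (at most 4.39, without CI-994 A). Leaving out 1 library gave 347 to 1730 genes for 5-azacytidine (665 with all, the most without a Vorinostat library and the fewest without a DMSO library), 46 to 76 member pairs, 1 to 4 members between the BRD compounds, 3 to 4 for the HDAC inhibitor mean, and 48 to 60 PSI pairs. A limit of 15 PSI left 26 of the 55 PSI pairs. Where not stated, the cause was not tested. Tet1 had under 5 junction RPM in every library named.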
